A study of Arabidopsis thaliana with 8 samples.

Results

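MIR396a and MIR396b are the 2 precursors of the miR396 family among the 108 MIRNA precursors counted here, and they were taken from the files by family number alone. SPARE sequences the 5′ ends of the fragments that keep the 3′ part of a precursor after it has been cut, so each tag start marks 1 cut or decay end. The libraries came from 10-day-old Arabidopsis seedlings grown in continuous light, tissue labelled as whole bud, of 4 genotypes with 2 libraries each: wild type (Col), Fiery1 -/-, Hyl1 -/- and Se -/-, called wild type, fiery1, hyl1 and se below. The labels name no allele and do not say whether the 2 libraries of a genotype came from separate plants, so every spread between them may be technical.

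miR396 represses GROWTH-REGULATING FACTOR (GRF) genes, transcription factors that keep leaf and meristem cells dividing, and TCP4, itself a target of miR319, raises miR396 levels in developing leaves. The miRNA lies on the 5′ arm of both hairpins. DCL1 cuts the hairpin with its partners HYL1, a double-stranded RNA-binding protein, and SE (SERRATE), a zinc-finger protein. FIERY1, a phosphatase, keeps the XRN exoribonucleases active, which degrade cut RNA from its 5′ end. In a precursor cut first at the base of its stem, the 3′ fragment begins just after the 3p strand of the miRNA duplex, here called the base-proximal end. A cut on the loop side leaves a fragment that begins with the 3p strand itself.

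MIR396a (AT2G10606) is annotated on TAIR10.1 chromosome 2 from 4142323 to 4142473 on the minus strand, and MIR396b (AT5G35407) on chromosome 5 from 13611798 to 13611932 on the plus strand. Both are hairpins annotated as miRNA primary transcripts of 151 and 135 nt. The RefSeq hairpins, read 5′ to 3′ from the TAIR10.1 sequence, are shown because the tags are placed on them, with both mature strands in capitals.
MIR396a hairpin: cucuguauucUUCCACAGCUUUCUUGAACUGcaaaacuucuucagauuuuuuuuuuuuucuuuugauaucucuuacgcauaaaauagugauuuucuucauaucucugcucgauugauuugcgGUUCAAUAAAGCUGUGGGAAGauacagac
MIR396b hairpin: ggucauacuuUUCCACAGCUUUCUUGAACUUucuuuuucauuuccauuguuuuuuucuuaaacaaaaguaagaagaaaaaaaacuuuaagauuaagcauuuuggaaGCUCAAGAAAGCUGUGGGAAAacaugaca

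The mature 5p strands, with the seed (bases 2 to 8) in capitals, share their seed and differ by 1 base of 21, G21U from miR396a to miR396b, counted from the 5′ end.
miR396a-5p: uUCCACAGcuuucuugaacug
miR396b-5p: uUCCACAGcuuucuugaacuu

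The 3p strands differ at 3 of 21 bases (U2C, U7G and G21A, miR396a first) and are shown with bases 10 to 21 in capitals, because many tags began at base 10.
miR396a-3p: guucaauaaAGCUGUGGGAAG
miR396b-3p: gcucaagaaAGCUGUGGGAAA

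Most tags of 26 nt or more began at 1 of 2 positions in each precursor, and the most frequent deposited tag of each is given with the bases of the 3p strand in capitals. The tag at the base-proximal end has none, and the tag at base 10 carries the last 12.
MIR396a tag at the base-proximal end: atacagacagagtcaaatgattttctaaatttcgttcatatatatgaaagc
MIR396b tag at the base-proximal end: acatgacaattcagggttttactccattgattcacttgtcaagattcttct
MIR396a tag at base 10: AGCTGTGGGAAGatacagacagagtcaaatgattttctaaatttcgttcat
MIR396b tag at base 10: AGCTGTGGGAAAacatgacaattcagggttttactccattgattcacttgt
Each tag of 26 nt or more of the family matched the reference exactly at 1 place and was listed for no other precursor, so the 2 precursors could be told apart despite their near-identical miRNAs.

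The libraries held 35860 to 821562 tag counts in all, and 25753 to 795030 of tags of 26 nt or more. Coverage of single precursors was uneven between the 2 libraries of a genotype except in fiery1. Of the precursors with at least 20 such tags in 1 wild-type library, 18 of 44 had 3 or fewer in the other, against 17 of 47 in hyl1, 16 of 52 in se and 0 of 86 in fiery1. Levels in CPM are a precursor's counts scaled to all precursor tags of the same length class in that library.

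MIR396b had more tags of 26 nt or more than MIR396a in 8 of 8 libraries. For MIR396a, the wild-type libraries held 1 and 0 tags, those of fiery1 437 and 716, those of hyl1 1 and 31, and those of se 0 and 0. As levels, wild type had 17.7 and 0 CPM, fiery1 had 964 and 901 CPM, hyl1 had 22.2 and 1204 CPM, and both se libraries had 0. Both fiery1 libraries stood above both wild-type libraries, 1 hyl1 library had a single tag as 1 wild-type library did, and in se the floor of 3 counts corresponds to 72.0 and 36.5 CPM. For MIR396b, the wild-type libraries held 218 and 3 tags, those of fiery1 824 and 1344, those of hyl1 685 and 158, and those of se 1121 and 3777. Wild type thus had 3855 and 24.7 CPM, fiery1 had 1817 and 1691 CPM, hyl1 had 15186 and 6135 CPM, and se had 26897 and 45972 CPM. Both se and both hyl1 libraries stood above both wild-type libraries, while the fiery1 libraries lay between the wild-type values. MIR396b ranked 7th and 5th of all precursors in the se libraries, 13th and 23rd in hyl1, 40th and 41st in fiery1, and 25th and 41st in wild type.

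**Figure D1:**
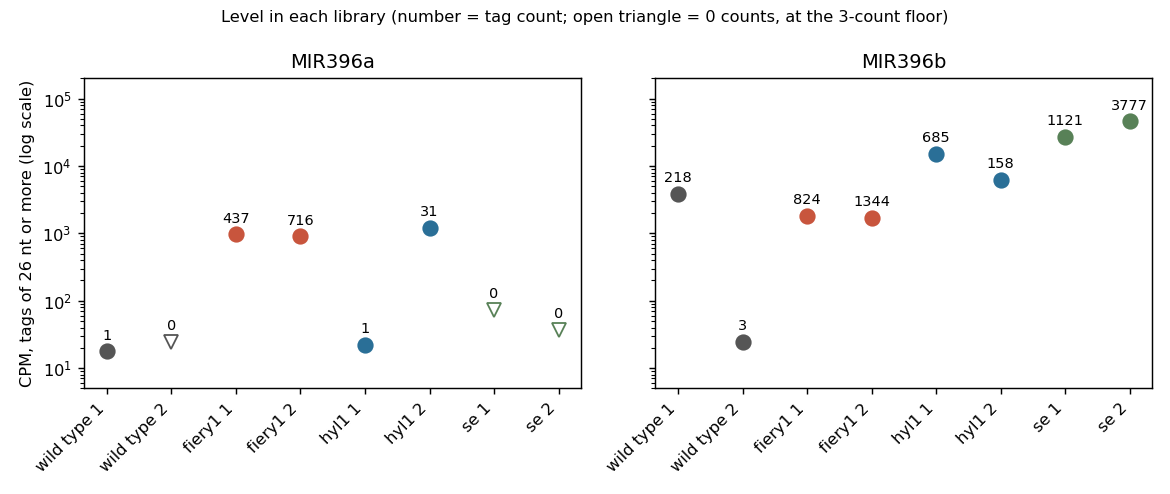
Level of MIR396a (left) and MIR396b (right) in CPM of tags of 26 nt or more, on a log axis, 1 point per library with its tag count above it; open triangles mark libraries with 0 tags at the level of 3 counts. MIR396a is highest in fiery1 and in 1 hyl1 library, and MIR396b is highest in se, at 26897 and 45972 CPM.

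The first comparison asked how the precursors differed between fiery1 and wild type. MIR396a stood at 932 ± 44.7 CPM (SD, n = 2) in fiery1 and 8.84 ± 12.5 CPM (SD, n = 2) in wild type. From 1 wild-type tag, the pooled ratio of tags per library total had an exact 95% counting interval of 29.4 to 6498, which covers counting error only. Its fitted log2 fold change of 6.56 ± 3.01 (SE) did not pass across all precursors (edgeR quasi-likelihood test, adjusted p = 0.157; 20.3% of the 74 precursors tested passed in this comparison, 13.5% higher and 6.76% lower). These 15 calls fell to between 0 and 2 when any 1 of the 4 libraries was left out, and rose to 40 with only the 2 genotypes in the model. In that smaller model MIR396a passed, at an adjusted p = 0.0428 by edgeR, and over all alternatives its adjusted p lay between 0.0428 and 0.486. Without the first wild-type library, which held the 1 tag, its log2 fold change was 10.68. Both fiery1 libraries were above both wild-type libraries for MIR396a, as they were for 56.8% of the precursors tested. MIR396b stood at 1754 ± 89.8 CPM in fiery1 and 1940 ± 2708 CPM in wild type (SD, n = 2 each), and its log2 fold change was -0.38 ± 1.55 (SE; edgeR, adjusted p = 0.873). Its sign rested on the wild-type libraries, with a log2 fold change of 5.51 without the first and -1.21 without the second.

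The second comparison was between hyl1 and wild type. MIR396b stood at 10660 ± 6400 CPM in hyl1 (SD, n = 2), with a fitted log2 fold change of 2.51 ± 1.64 by edgeR (SE; adjusted p = 0.359), in a comparison in which 0% of the 74 precursors passed, with 14 at an unadjusted p under 0.05 and 18 called by DESeq2. The call appeared without the first wild-type library, when 3 wild-type tags remained, at a log2 fold change of 8.41 (edgeR, adjusted p = 0.0364), and over all alternatives the adjusted p lay between 0.0364 and 0.847. Both hyl1 libraries were above both wild-type libraries for MIR396b, as for 18.9% of the precursors tested. For MIR396a the fitted log2 difference was 6.69 ± 3.04 (SE; edgeR, adjusted p = 0.225), and the value came from the second hyl1 library: without it the log2 fold change was 1.26 (edgeR, adjusted p = 1), and over the alternatives its adjusted p lay between 0.180 and 1.

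The third comparison was between se and wild type. MIR396b stood at 36435 ± 13488 CPM in se (SD, n = 2) against the wild-type 1940 ± 2708 CPM, and the fitted log2 difference was 4.23 ± 1.77 (SE; edgeR, adjusted p = 0.217). In this comparison edgeR called 0% of 74 precursors, with 16 below 0.05 before adjustment, MIR396b among them, and DESeq2 called 23. MIR396b passed with DESeq2, at a log2 fold change of 3.965 (adjusted p = 0.0326), and with edgeR without the first wild-type library, at 10.11 (adjusted p = 0.0374). Over all alternatives its adjusted p lay between 0.0326 and 0.953. Both se libraries were above both wild-type libraries, as for 28.4% of the precursors tested. When each precursor's most used position was left out, the log2 fold change of MIR396b was 0.51 (edgeR, adjusted p = 0.953). For MIR396b that position was base 10 of the 3p strand, with 1120 and 2916 tags in se and 0 and 3 in wild type. It was picked on the counts of all libraries, so leaving it out removes most se tags and few wild-type tags. No fold is given for MIR396a, since 0 tags in se and 1 in wild type both lie under the floor of 3 counts.

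The balance between the 2 precursors was also set out within each library, without scaling to the library total. The log2 ratio of MIR396b to MIR396a tags, with 0.5 added to both counts, was 7.19 and 2.81 for the wild-type libraries, 0.91 and 0.91 for fiery1, 8.84 and 2.33 for hyl1, and 11.13 and 12.88 for se. Both fiery1 libraries lay below and both se libraries above all libraries of the other genotypes. The place of the se libraries rests on 0 MIR396a tags in each, under the floor of 3 counts. The difference from wild type was -4.09 in fiery1 and 7.01 in se (exact two-sided permutation p = 0.333 each, the smallest that 2 libraries against 2 allow), and 0.59 in hyl1 (exact permutation p = 1). With wild-type replicate 1 left out the difference was -1.90 in fiery1 and 9.20 in se, with replicate 2 left out it was -6.28 and 4.82, and in hyl1 its sign changed with the library left out. Ratios from libraries with 0 or 1 MIR396a tags depend on the added 0.5, and with 0 tags also on depth. Their size and order are therefore a description.

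The comparison of 5′ ends asked where the precursors had been cut. Tags of MIR396a began mostly at the base-proximal end, at chromosome 2 position 4142330 (850 of 1186 tags), and at the next base (106 tags). In fiery1 the share within 1 nt of the base-proximal end was 82.6% (95% Wilson interval 78.8 to 85.9) and 82.8% (79.9 to 85.4) in the 2 libraries. Base 10 of the 3p strand (position 4142342) held 16.9% (74 of 437 tags) and 16.2% (116 of 716) in fiery1. The single wild-type tag and the single tag of the first hyl1 library lay within 1 nt of the base-proximal end. Against that 1 wild-type tag the mean share in fiery1 differed by -17.3 points (exact permutation p = 0.333, the smallest that 2 libraries against 1 allow), and in se there were no tags to compare. In the second hyl1 library all 31 tags began at position 4142463, the first base of miR396a-5p, and 0 at either of the other positions. With tags of at most 51 nt, how far 3′ of that base the fragments reached was not measured.

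MIR396b tags of 26 nt or more numbered 8130 over all libraries. Base 10 of its 3p strand (chromosome 5, position 13611913) held 4648 of them, in 7 of 8 libraries. The se libraries gave 1120 and 2916 of these, the second wild-type library 3 and the second hyl1 library 1. The base-proximal end (position 13611925) held 2060, in 5 of 8 libraries, with 1 tag in the first se library. The base-proximal share within 1 nt was 100% (218 of 218 tags) and 0% (0 of 3, 95% Wilson interval up to 56.1) in wild type. It was 67.7% (95% Wilson interval 64.5 to 70.8) and 70.5% (68.0 to 72.9) in fiery1. In hyl1 it was 48.9% (45.2 to 52.6) and 0% (0 of 158 tags, which allows up to 1.90%). In se it was 0.0892% (1 of 1121 tags) and 0% (0 of 3777, up to 0.0794%). The fiery1 libraries kept most ends at the base and the se libraries almost none. The hyl1 libraries lay far apart, and the second wild-type library, with 3 tags, was too thin to place. The wild-type mean used below weighs those 3 tags as much as the 218 of the first library. Against wild type, the mean share was 19.1 points higher in fiery1, and it differed by -25.5 points in hyl1 and by -50.0 points in se (exact two-sided permutation p = 1 each, since the wild-type libraries, at 100% and 0%, spanned all the others).

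The share of MIR396b ends within 1 nt of base 10 of the 3p strand was 0% (0 of 218 tags, up to 1.38%) and 100% (3 of 3 tags, 95% Wilson interval 43.9 to 100) in wild type. It was 30.5% (27.4 to 33.7) and 19.1% (17.1 to 21.3) in fiery1, 39.1% (35.5 to 42.8) and 74.7% (67.4 to 80.8) in hyl1, and 99.9% (from 99.5) and 83.2% (82.0 to 84.4) in se. The se libraries stood above both the fiery1 and the hyl1 libraries, and the hyl1 libraries above those of fiery1. In the second hyl1 library 117 of these 118 tags began 1 nt earlier, at base 9, a base that also held 100 and 68 tags in fiery1 and 228 in the second se library.

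**Figure D2:**
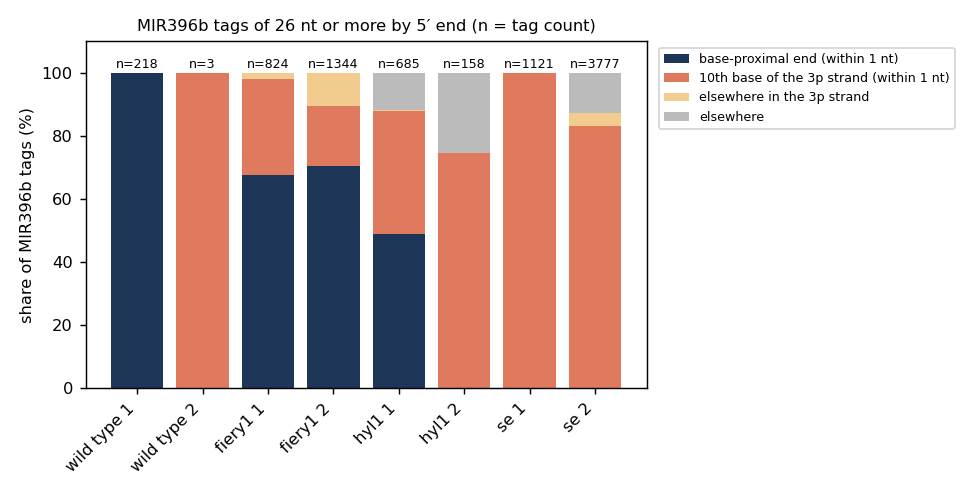
Share of MIR396b tags of 26 nt or more (%) by the place of their 5′ end, 1 bar per library with its tag count above it, coloured for the base-proximal end and base 10 of the 3p strand (each within 1 nt), the rest of the 3p strand and elsewhere. The base-proximal end holds 67.7% and 70.5% in fiery1 and at most 0.0892% in se, where base 10 of the 3p strand holds 99.9% and 83.2%.

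The end at base 10 had the same place in both precursors. It lay 12 nt before the base-proximal end in MIR396a and in MIR396b, and the 12 bases from there to the end of the strand were the same except for the last. In the minimum free energy fold of both annotated hairpins (RNAfold, -48.2 and -46.6 kcal/mol), base 10 of the 3p strand was paired with base 10 of the 5p strand, and base 9 with base 11. The end therefore lay opposite the bond between bases 10 and 11 of miR396. What produced it was not tested.

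The same position, 12 nt before the base-proximal end within 1 nt, was then read in the other precursors with a 3′ arm annotated and at least 20 tags of 26 nt or more in a library. The median share was 0% in each of the 7 libraries in which a family member had 20 tags. MIR396b had the highest share of 64 and 68 precursors in the fiery1 libraries, of 38 and 30 in hyl1, and of 38 and 33 in se, and MIR396a the second highest in both fiery1 libraries. Precursors of other families with more than 10% there were MIR160c (12.2%, first fiery1 library), MIR395c (13.5%, second fiery1 library) and MIR398c (10.4%, second se library). The position was chosen after the family's tags were seen, so these ranks are a description.

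**Figure D3:**
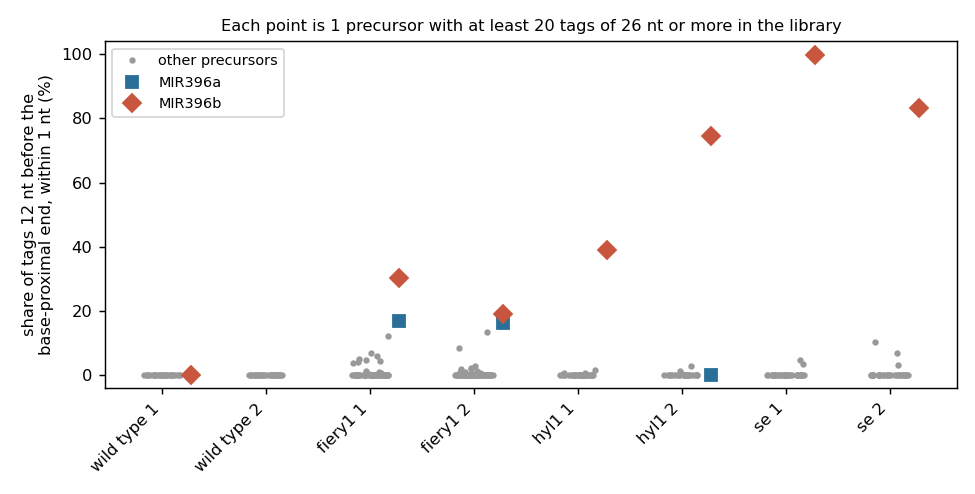
Share of tags that begin 12 nt before the base-proximal end, within 1 nt (%), for each precursor with at least 20 tags of 26 nt or more, by library; grey points are other precursors, squares MIR396a and diamonds MIR396b. The points of MIR396b lie above all other precursors in both libraries of fiery1, hyl1 and se, at 19.1% to 99.9%, and at 0% in the first wild-type library.

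Since 1 wild-type library held 3 tags of MIR396b, the mutants were also set beside fiery1, whose libraries held the most tags of 26 nt or more, a comparison chosen after the data were seen and given as a description. The base-proximal share of MIR396b was lower in both se libraries than in both fiery1 libraries, by 69.1 points on average, as it was for 74.1% of the 27 precursors with 20 tags in each library, whose median difference was -38.0 points. MIR396b had the 4th largest fall. For hyl1 minus fiery1 the difference was -44.7 points, the 5th largest fall of 25. There 56% of precursors were lower in both hyl1 libraries, with a median of -22.0 points. The share at base 10 of the 3p strand was higher in se by 66.8 points and in hyl1 by 32.1 points than in fiery1. That share was higher without overlap in 11.1% of 27 precursors for se and in 8% of 25 for hyl1, the median differences were 0, and MIR396b had the largest difference in both.

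Other ends of MIR396b were each found in 1 or 2 libraries. In fiery1, base 6 of the 3p strand held 15 and 139 tags. In the first hyl1 library 81 tags began 48 nt before the 3p strand, in the loop side of the hairpin. In the second hyl1 library 40 tags began 97 nt upstream of the annotated hairpin. In the second se library 290 and 189 tags began 17 and 34 nt before the 3p strand, on the loop side, and 154 at base 5 of the 3p strand. None of these was seen in the other library of the same genotype except base 6 in fiery1, and 1 further tag of the first hyl1 library began at base 13.

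No tag of 26 nt or more began within 1 nt of the loop-proximal end of either precursor in any library. With 1344 MIR396b tags in the second fiery1 library and 3777 in the second se library, counts of 0 allow shares of up to 0.223% and 0.0794%. The window of 3 nt also held 0 tags. For MIR396a in fiery1, 0 of 437 and 0 of 716 tags allow up to 0.686% and 0.419%. All these limits take each tag as an independent fragment, and without molecular identifiers copies of 1 fragment could not be told apart.

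**Figure D4:**
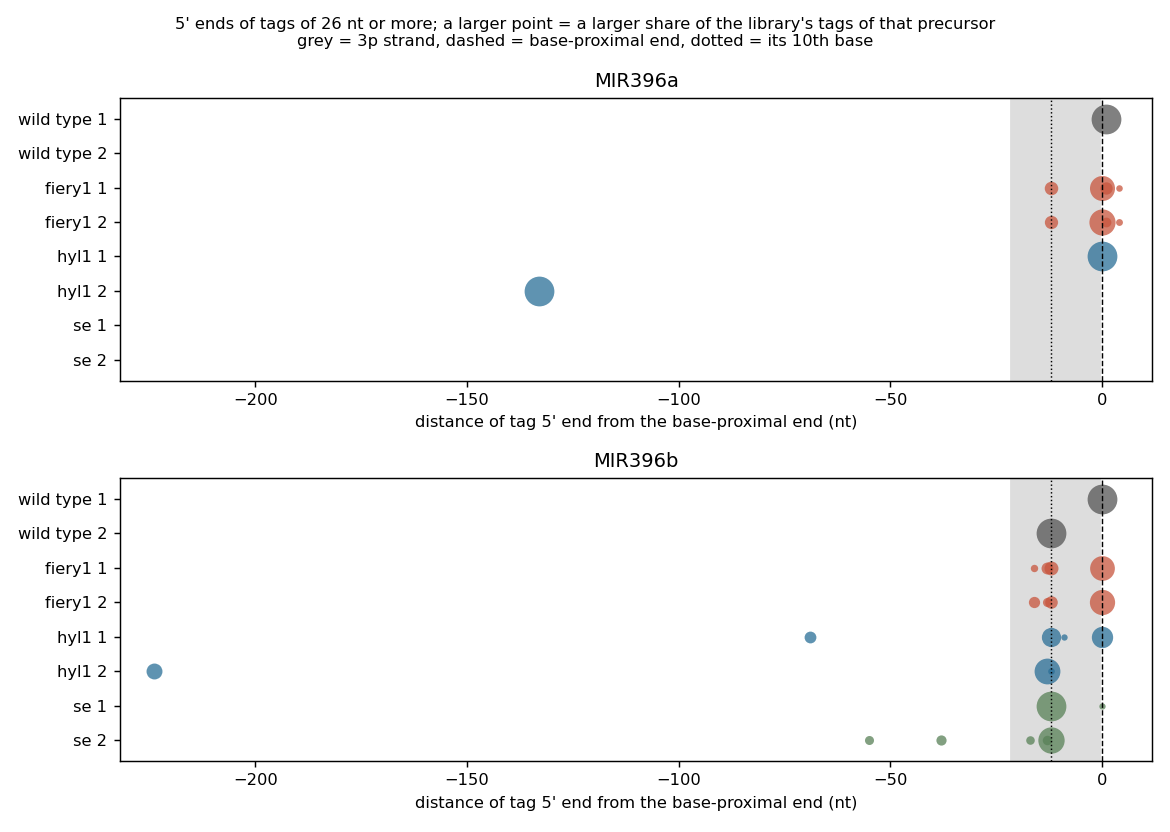
Place of the 5′ ends of MIR396a (top) and MIR396b (bottom) in each library, as the distance in nt from the base-proximal end, for tags of 26 nt or more; larger points hold a larger share of the library's tags, grey marks the 3p strand, the dashed line the base-proximal end and the dotted line base 10. Ends lie on those 2 lines in both precursors, and ends on the loop side or upstream appear in the hyl1 libraries and in the second se library.

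Tags of 18 to 25 nt gave another picture. The most frequent of each precursor, taken from the deposited files, are shown because they lie downstream of the hairpin.
MIR396a most frequent tag of 18 to 25 nt: tatgactaccaactatattgtag
MIR396b most frequent tag of 18 to 25 nt: ctaaattgaagacacagga
All 1526 such tags of MIR396b ended at the same base, 116 nt after the base-proximal end, and all 22 of MIR396a at 1 base, 150 nt after it. They began 94 to 98 nt after the base-proximal end in MIR396b and 128 to 133 nt after it in MIR396a, beyond the annotated hairpins. Of MIR396b, wild type had 0 and 5 of them, fiery1 had 23 and 64, both hyl1 libraries had 0, and se had 267 and 1167. As CPM of short tags, wild type had 0 and 975.2, fiery1 had 1322 and 2412, and se had 1036 and 2725. The fiery1 and se libraries stood above both wild-type libraries, as they did for 55.1% and 30.8% of all precursors tested. In fiery1 the log2 fold change was 1.94 ± 1.57 (SE; edgeR, adjusted p = 0.421), and it was 0.88 without the first wild-type library and 9.93 without the second. In se it was 2.77 ± 1.59 (SE; edgeR, adjusted p = 0.331), with 1.54 and 10.78 without those libraries. Of the 78 precursors tested, 0% passed in fiery1, hyl1 or se, with 17, 8 and 14 at an unadjusted p under 0.05 and 8, 1 and 4 called by DESeq2. The short-tag totals of the hyl1 libraries were 545 and 10107, so 3 counts correspond to 5505 and 297 CPM there. Those totals were 257836 and 428279 in se, 23612 and 5127 in wild type, and 17401 and 26532 in fiery1. Since the short tags of a precursor shared 1 last base, their length followed from their start. Why they ended there was not tested, so these values describe the short tags and not the level of the precursor. Of MIR396a, both wild-type libraries had 0 short tags, fiery1 had 1 and 9, hyl1 had 0 and 10, and se had 0 and 2, and it did not pass the filter on low counts.

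Other miRNA families known to shape leaves and meristems were set beside miR396. They were MIR319, which targets TCP genes, MIR164 (CUC boundary genes), MIR165 and MIR166 (HD-ZIP III genes), MIR160 and MIR167 (auxin response factors), and MIR390, which starts trans-acting siRNAs. Of their 24 precursors 17 passed the filter among tags of 26 nt or more. In fiery1 edgeR called 1 of the 17 higher and 1 lower, where 13.5% and 6.76% of all 74 were called, with a median log2 fold change of 1.65, against 1.34 over all 74 precursors. MIR164b was the one that rose, from 8 and 7 tags in wild type to 16923 and 20227 in fiery1 (log2 fold change 7.97 ± 1.98 SE, edgeR adjusted p = 0.0244). MIR166b was the one that fell, with 1181 and 1130 tags in wild type and 557 and 621 in the deeper fiery1 libraries (log2 fold change -4.24 ± 1.07 SE, edgeR adjusted p = 0.0244). Neither call held when any 1 library of fiery1 or wild type was left out (edgeR adjusted p from 0.106 to 0.302 for MIR164b and from 0.0553 to 0.316 for MIR166b). MIR160b and MIR167c had the largest fitted rises, from 0 tags in wild type to 93 and 778 and to 151 and 139 tags in fiery1, and did not pass (edgeR, adjusted p = 0.0641 and 0.0842, over the alternatives from 0.0293 to 0.361 and from 0.0290 to 0.508). In hyl1 and in se 0 of the 17 passed, with medians of 1.08 and 1.72, against 0 and 0.10 over all precursors. Of 55 precursors in families listed as cut from the base towards the loop, 36 were tested, with 5 called higher and 2 lower in fiery1 (20.3% of all 74 were called in either direction; median log2 fold change 2.80) and 0 called in hyl1 or se (0.04 and 0.15). Among tags of 18 to 25 nt, 19 and 42 precursors of these lists were tested and 0 were called in any genotype.

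The precursors whose level pattern over the 8 libraries was nearest were found from centred log2(CPM + 1) values of 73 other precursors, by the root mean square difference. For MIR396a the nearest were MIR166f (1.56), MIR862 (2.02) and MIR167d.2 (2.15), against a median of 4.63. For MIR396b they were MIR393b (1.95), MIR159a (2.65) and MIR156a (2.71), against a median of 4.68. MIR396a and MIR396b lay 5.46 apart, farther than the median precursor from either. MIR396a held 1 and 0 tags in wild type, 1 in the first hyl1 library and 0 in both se libraries. All of these lie under the floor of 3 counts, and MIR862 stood at 0 CPM in each of these libraries. Distances from MIR396a therefore depend on the added 1 and on depth, and are a description.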

How the data were processed

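SPARE libraries of 4 genotypes, with 2 libraries each, were analysed. The authors deposited, per library, tag sequences with their precursor, position and abundance as whole-number counts. Per the submitters' processing notes, cutadapt and TAIR10 were used, and their versions are not given in the sources used here. Counts are of tags listed at precursors, so they carry no depth of the whole library. Each precursor was placed on TAIR10.1 from its tags (99.6% of counts matched exactly), and 111 names were merged into 108 precursors. Left out were 13 entries with a blank count, 6 and 7 of them in the fiery1 libraries. Tags of 26 nt or more and of 18 to 25 nt were kept apart.

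Levels were tested with edgeR 4.0.16 (quasi-likelihood, TMM, filterByExpr with a minimum count of 10, all 8 libraries in 1 model) in R 4.3.3, with Benjamini-Hochberg adjustment over all precursors tested. The edgeR fit was also run on simulated counts with means taken from these data, and its outcome is not used here. Shares and ratios were tested by exact two-sided permutation over libraries, whose smallest p is 0.333. Hairpins were folded with RNAfold 2.7.2. Intervals (95%), upper limits for counts of 0 and the floor of 3 counts cover counting error only and take each tag as an independent fragment. The tags carry no molecular identifiers, so copies of 1 fragment could not be told apart, and these ranges may be too narrow. The labels give replicate numbers only, and deviations of same-numbered libraries correlated at r from -0.17 to 0.26 over 6 pairs of genotypes, so the numbers were not taken to pair the libraries. The first hyl1 library and the second se library carry later sample numbers than the others, and what this reflects was not tested. Alternatives included DESeq2 1.42.0 and a model term for those libraries. The members, lists and named precursors were chosen with earlier results of these data known. The named precursors of the leaf list were those called in fiery1 and those with the largest fitted rises there. Its extremes in hyl1 and se are not named. The precursors nearest in pattern were the 3 with the smallest difference.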

Additional observations from a re-analysis of the deposited data

How the results depend on the processing

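For 7 comparisons of level, 95 alternative values kept their direction and their side of the threshold, 3 reversed and 4 passed it where the main value had not. The permutation tests of shares and ratios cannot pass it, and the loop-proximal shares were 0 throughout, so they say nothing of stability. The wild-type libraries held 218 and 3 MIR396b tags, the 3 in the one with more tags of 26 nt or more in all, and 1 and 0 MIR396a tags; the cause was not tested. The base-proximal share of MIR396a at the exact position differed from wild type by 72.8 points in fiery1 and 50.0 in hyl1, the sign opposite to that within 1 nt, since the 1 wild-type tag began 1 nt after the base-proximal end. Leaving out 1 library in turn, the base-proximal share difference of MIR396b ran from -30.9 to 69.1 points in fiery1, -75.5 to 24.5 in hyl1 and -99.96 to 0.0446 in se, with each extreme set by 1 wild-type library. The log2 ratio of MIR396b to MIR396a in hyl1 was -0.25 with all tags together and ran from -2.67 to 3.84 without 1 library. In fiery1 the log2 fold change of MIR396b was 0.10 with the replicate block and 0.18 with all tags together, and ran from -1.21 to 5.51 without 1 library; that of MIR396a was 6.63 with only the 2 genotypes compared. Without 1 library MIR396b ran from 1.41 to 8.41 in hyl1 and from 3.31 to 10.11 in se, where DESeq2 gave 3.965. Leaving out each precursor's most used position gave 0.51 in se, where that position of MIR396b held most of its tags. With the replicate block, which pairs libraries by number only, 0 precursors were called in fiery1 against 15 without it, and no call of MIR396a or MIR396b changed. DESeq2 called 23 there, the fit with no filter on low counts 5, and those with all tags together or without the most used positions 1 each. MIR164b and MIR166b lost their calls under the block and without any 1 library, and MIR167c was at -1.40 with all tags together. The model with only the 2 genotypes gave no value for MIR396a in hyl1, which did not pass its filter.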
